A study of Homo sapiens with 9 samples.

Results

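The 37 genes described here encode the core machinery of autophagy and its cargo receptors, and they were taken by gene symbol from a table of 58735 genes measured by RNA-seq in KHM-5M cells, a human thyroid cancer cell line. The list follows known roles, but it was drawn up with earlier results of these data known, and it holds SQSTM1 and ATG16L2, which are among the genes the study displayed. Cells were exposed for 24 h to DMSO, the solvent control, or to 0.3 μM or 1 μM YK-4-279, a small molecule made to block the protein partners of ETS family transcription factors, and the study asked what this compound does to thyroid cancer cells. Each of the 3 groups had 3 samples, all of the single KHM-5M line and carrying no introduced allele, so that a result speaks for this line only. The study lists this line among those with both a BRAF mutation and a TERT promoter mutation. The sample labels number the 3 replicates but do not say whether they were separate cultures, the study's methods give a smaller number of biological replicates than the labels, and p-values then measure only the spread between these samples, which may be technical.

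Autophagy is the route by which a cell encloses cytoplasm in a double membrane, the autophagosome, and delivers it to the lysosome for breakdown. The ULK kinase complex starts the process, a class III phosphatidylinositol 3-kinase complex marks the membrane, lipid transfer and scramblase proteins enlarge it, and 2 linked conjugation systems attach ATG8 proteins such as LC3 to its lipid. Cargo receptors bind ubiquitinated material on one side and ATG8 proteins on the other, and TFEB is a transcription factor for autophagy and lysosome genes. Autophagy is controlled largely through phosphorylation and lipid attachment, neither of which is seen in transcript counts.

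The libraries held 16903251 to 18238884 counts each, and a count of 0 allowed a level of up to 0.164 to 0.177 CPM, the unit of counts scaled to library size, a limit that covers counting error only. No 2 samples of a group agreed within sampling noise, with a chi-square per degree of freedom of 3.20 to 10.7. The cells had the epithelial keratins KRT8 at 183 to 204 FPKM and KRT18 at 125 to 141 FPKM, while of the other epithelial markers EPCAM was at 2.06 to 2.86 FPKM, KRT19 at 1.56 to 2.57 FPKM and CDH1 at no more than 5 counts. They had the thyroid factor PAX8 at 21.6 to 27.7 FPKM, whereas TG, TSHR and SLC5A5 had at most 4 counts in any sample, so these markers of differentiated thyroid cells were absent or nearly so. Leukocyte markers had at most 2 counts in any sample. Of 5 fibroblast markers, COL1A1 and PDGFRB fell at 1 μM (log2 fold change -0.41 and -0.48, adjusted p = 0.0132 and 0.000773 by edgeR's quasi-likelihood test), LUM had a log2 fold change of 0.33 (adjusted p = 0.11, not called), the other 2, DCN and COL1A2, had at most 8 and 10 counts, and the summed level was 49.1 to 66.5 FPKM with DMSO, 43.9 to 61.5 FPKM at 0.3 μM and 43.0 to 48.5 FPKM at 1 μM. The part of these markers in the results below was not tested.

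At 1 μM, 8 of the 37 autophagy genes passed the test. The cargo receptors SQSTM1, OPTN and TAX1BP1, the ATG8 protein gene MAP1LC3B, the kinase scaffold PIK3R4 and the conjugation gene ATG5 rose, and the conjugation genes ATG4B and ATG16L2 fell. SQSTM1 rose by 54.1% and ATG16L2 was 51.2% lower, and these were the only members past 1.5-fold in this fit. All 37 genes passed the filter on low counts in each comparison. A gene was called where the Benjamini-Hochberg adjusted p of edgeR's quasi-likelihood test, taken over all genes tested, was under 0.05. The 8 called genes are 21.6% of the 37, and 17.6% of the 15617 genes tested were called in the same comparison. In the direction of a rise the share was 16.2% of the autophagy genes (6 genes) against 7.67% of all genes tested, and in the direction of a fall 5.41% (2 genes) against 9.95%. Past 1.5-fold the share was 5.41% against 5.49%, and at an unadjusted p under 0.05 it was 27% (10 genes) against 31.9%. A log2 fold change above 0, called or not, was measured for 25 of the 37 (67.6%) and for 48.7% of all genes tested. The median log2 fold change of the autophagy genes was 0.06, beside -0.01 over all genes tested, and the median absolute value was 0.09, beside 0.17. These medians were not matched for level. With DMSO the 37 had a median of 8.83 FPKM, beside 5.498 FPKM for protein-coding genes with a mean count of at least 10. Since values are relative to each library's total, a change in the RNA of each cell and a change in the number of cells of a kind cannot be told apart.

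**Figure D1:**
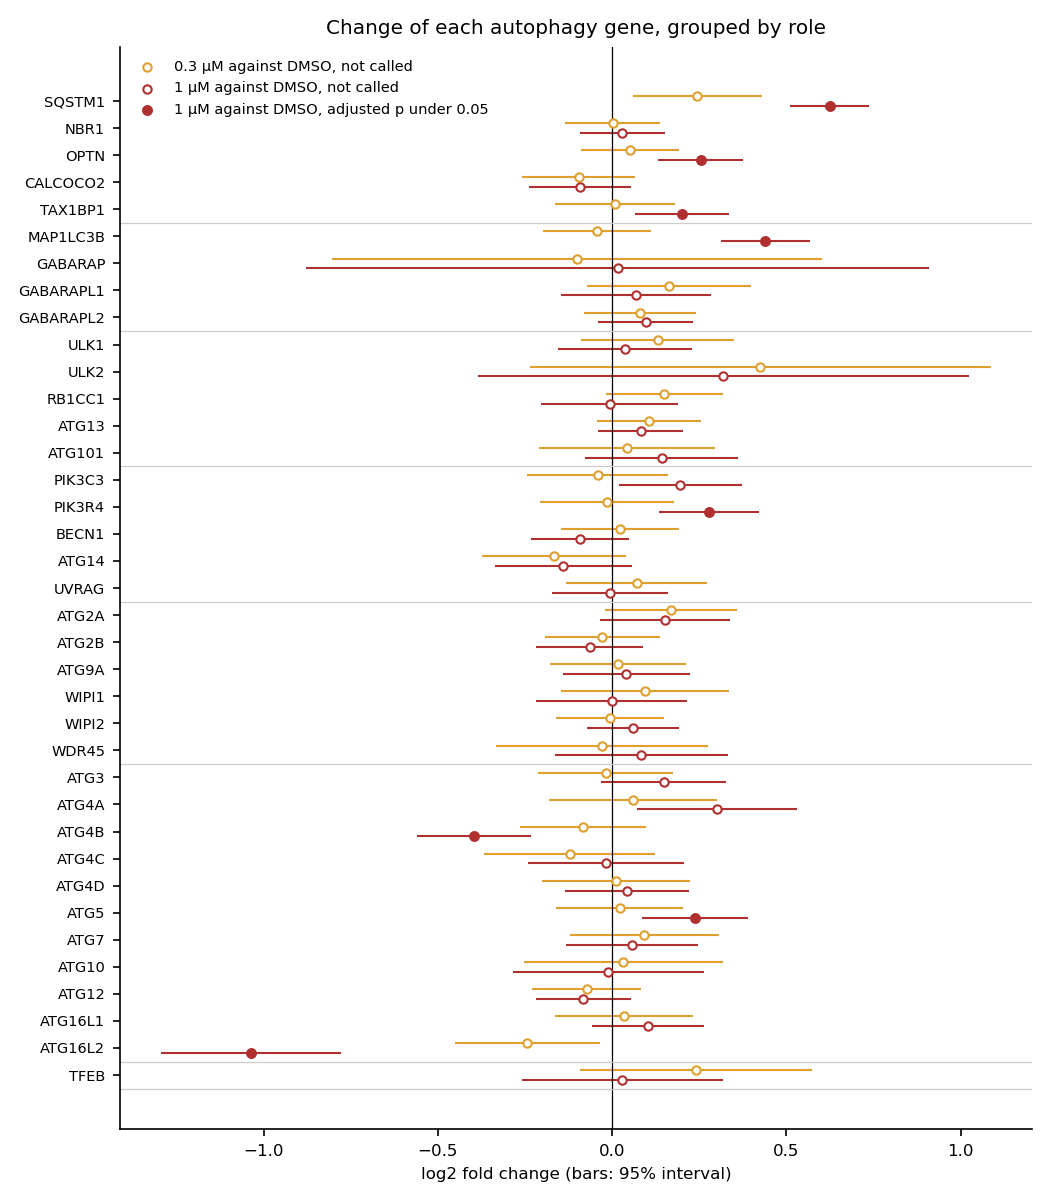
Log2 fold change of each of the 37 autophagy genes (x axis) at 0.3 μM and at 1 μM YK-4-279 against DMSO, with 95% intervals as bars, genes grouped by role and filled points marking an adjusted p under 0.05. The 8 filled points are all at 1 μM, 6 to the right of 0 and 2 to the left, and the widest bars belong to GABARAP and ULK2, which had at most 36 and 39 counts in a sample.

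The 250 bases upstream of a transcription start are shown for the 2 genes past 1.5-fold, because YK-4-279 was designed against an ETS factor and ETS factors recognise a GGAA core. Sequences are from RefSeq on GRCh38.p14, read 5′ to 3′ on the plus strand, with each GGAA or its reverse complement TTCC in capitals. SQSTM1 has 3 RefSeq starts with such a window, each holding 2 cores, and the one shown, chr5:179820655-179820904, ends before the start of the GENCODE canonical transcript, as does the single ATG16L2 window, chr11:72814161-72814410, which holds 1 core. Both genes have annotated transcripts that begin further upstream, so the windows overlap the deposited gene models.
SQSTM1: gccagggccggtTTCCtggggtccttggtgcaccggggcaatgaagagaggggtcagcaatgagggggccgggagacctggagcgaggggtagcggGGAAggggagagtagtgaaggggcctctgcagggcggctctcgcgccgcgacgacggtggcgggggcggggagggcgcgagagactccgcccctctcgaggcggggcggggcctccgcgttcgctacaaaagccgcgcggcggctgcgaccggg
ATG16L2: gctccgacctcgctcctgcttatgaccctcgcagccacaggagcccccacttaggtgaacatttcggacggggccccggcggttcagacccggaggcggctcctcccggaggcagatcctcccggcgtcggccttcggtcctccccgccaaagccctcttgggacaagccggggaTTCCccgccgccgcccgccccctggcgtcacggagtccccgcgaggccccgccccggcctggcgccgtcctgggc
A GGAA core on either strand stood in 41 of the 44 upstream windows found for 34 of the 37 genes (RB1CC1, UVRAG and ATG4D were not matched), and in 92.7% of 34943 such windows over all genes. The longer ETS sequence CGGAAG, which contains the core, was in 13 of the 44 windows and in 16.4% of all windows. The E-box CACGTG bound by TFEB and its relatives was in 2 of 44 and 6.32%, the antioxidant response sequence TGACNNNGC in 3 of 44 and 10.9%, the AP-1 sequence TGANTCA in 1 of 44 and 6.59%, and the NF-kB motif in 9 of 44 and 9.95%, all searched on both strands. The windows are not independent, as some genes have more than 1, and both OPTN windows, which overlap, hold the NF-kB motif. These matches describe letters in the windows and not binding.

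Cargo receptors hold ubiquitinated proteins, damaged organelles or bacteria to the growing autophagosome. Of the 5 measured, 3 were called higher at 1 μM, beside 7.67% of all genes tested. SQSTM1 is in the list as a gene the study displayed from these samples. For the counts of the other role groups below, 17.6% of all genes tested were called in either direction. SQSTM1 (ENSG00000161011, chr5:179806398-179838078, plus strand) encodes p62, the archetypal receptor, which is itself degraded by autophagy and also serves as a signalling scaffold. Its level in CPM, normalised by TMM as for all values per sample here, was 278, 269 and 262 with DMSO, 313, 274 and 371 at 0.3 μM and 428, 417 and 407 at 1 μM, from 4434 to 7835 counts a sample. The 3 samples at 1 μM lay above all 6 others, and the 0.3 μM samples overlapped DMSO, spreading further than either other group. The log2 fold change at 1 μM was 0.62 (SE 0.05), with an adjusted p of 1.21e-05.

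OPTN (ENSG00000123240, chr10:13099449-13138308, plus strand) encodes optineurin, a receptor for bacteria and damaged mitochondria. It stood at 149, 160.1 and 154 CPM with DMSO, 155, 159 and 167 CPM at 0.3 μM and 177, 189.8 and 188 CPM at 1 μM. All samples at 1 μM were above the rest, with a log2 fold change of 0.25 (SE 0.06) and an adjusted p of 0.00737. TAX1BP1 (ENSG00000106052, chr7:27739331-27844564, plus strand), a receptor for protein aggregates, stood at 90.0, 103 and 91.5 CPM with DMSO, 86.7, 96.9 and 103 CPM at 0.3 μM and 111, 109 and 109 CPM at 1 μM. The 1 μM samples lay above the rest, but the log2 fold change of 0.20 (SE 0.06) had an adjusted p of 0.0406, and the call was lost when DMSO replicate 1 or 3 or any 1 of the 1 μM samples was left out, with adjusted p of 0.0958 to 0.157 in those fits. NBR1, the receptor most like SQSTM1 in its build, was measured at 208 to 228 CPM with DMSO and 213 to 225 CPM at 1 μM, which overlap. CALCOCO2, the receptor NDP52, had a log2 fold change of -0.09 and was not called.

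The relation between SQSTM1 and NBR1 was also measured within each sample, as the ratio of their FPKM values, which are scaled to gene length. This pair, the pair ATG16L2 and ATG16L1 below and 3 further pairs were chosen after values were seen, and with 3 samples a group the two-sided exact permutation test cannot give a p below 0.1. The ratio was 1.46, 1.30 and 1.37 with DMSO, 1.58, 1.42 and 1.87 at 0.3 μM and 2.09, 2.15 and 1.99 at 1 μM. On the log2 scale it was higher by 0.59 at 1 μM (exact p = 0.1, adjusted over 15 tests 0.25) with no overlap, and by 0.23 at 0.3 μM (exact p = 0.2, adjusted 0.375), where the groups overlapped. At 1 μM the ratio of ATG4D to ATG4B was higher by 0.44 (exact p = 0.1), that of ATG2A to ATG2B by 0.22 (exact p = 0.5), and that of ULK1 to ULK2 differed by -0.33 (exact p = 0.5).

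**Figure D2:**
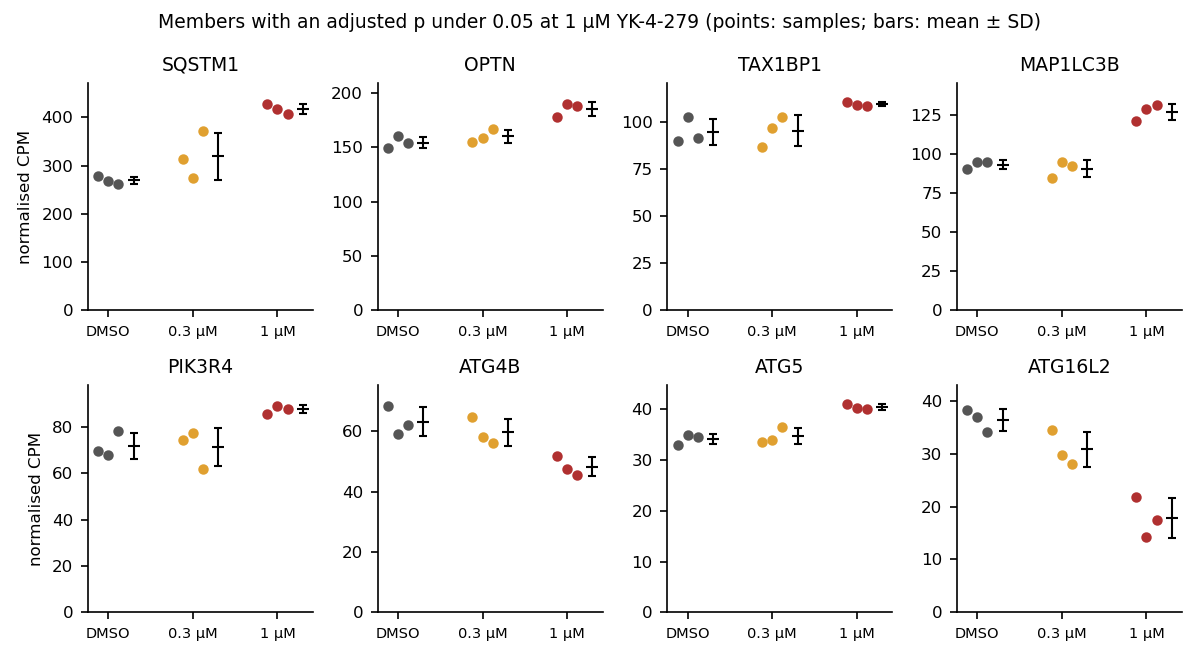
Normalised CPM (y axis, from 0) in each of the 9 samples for the 8 autophagy genes with an adjusted p under 0.05 at 1 μM, with group means and SD as bars. In every panel the 3 points at 1 μM lie on one side of the 3 DMSO points, and the SQSTM1 points at 0.3 μM span 274 to 371 CPM.

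ATG8 proteins are attached to the autophagosome membrane and recruit both cargo receptors and the machinery of fusion. MAP1LC3B (ENSG00000140941, chr16:87383995-87404779, plus strand), which encodes LC3B, was the 1 of 4 that passed the test. It stood at 90.3, 94.9 and 95.02 CPM with DMSO, 84.7, 95.03 and 92.7 CPM at 0.3 μM and 121, 129 and 132 CPM at 1 μM. The DMSO and 0.3 μM groups overlapped and the 1 μM samples lay above both, with a log2 fold change of 0.44 (SE 0.06) and an adjusted p of 0.000259. A near-identical copy, MAP1LC3B2, had 51 to 77 counts a sample beside 1498 to 2229 for MAP1LC3B, and some reads could be split between them. MAP1LC3B kept the call at 1 μM in all 13 alternative fits, including the fit that summed the counts of both genes.

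Among the other ATG8 genes, neither GABARAPL2 (log2 fold change 0.10 at 1 μM) nor GABARAPL1 (0.07) was called. GABARAPL1 stood at 39.1 to 51.8 CPM with DMSO and 43.3 to 49.5 CPM at 1 μM, and its log2 fold change turned to -0.004 without DMSO replicate 3. GABARAP had only 8 to 36 counts in a sample, and its level is uncertain because another protein-coding gene, AC120057.2, covers 2344 bases of it on the same strand. That overlapping gene had no count in any sample, and how the counting treated reads shared by both was not given in the sources used here.

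Initiation of autophagy runs through ULK1 or ULK2 with RB1CC1, ATG13 and ATG101, and none of the 5 genes was called at 1 μM. ULK1, the kinase that starts the process, stood at 80.4, 61.0 and 75.3 CPM with DMSO, 80.2, 69.5 and 87.8 CPM at 0.3 μM and 70.6, 77.2 and 75.6 CPM at 1 μM. The groups overlapped, and the log2 fold change at 1 μM was 0.04 with a 95% interval of -0.15 to 0.23 (adjusted p = 0.821). It turned to -0.07 without DMSO replicate 2, the lowest sample. ATG13, the regulatory subunit, had a log2 fold change of 0.08 and ATG101, its partner, of 0.14. ULK2 was listed at 16 to 39 counts a sample, and its interval of -0.39 to 1.02 on the log2 scale reached past 1.5-fold.

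The class III phosphatidylinositol 3-kinase complexes hold the lipid kinase PIK3C3 (VPS34), its scaffold PIK3R4 (VPS15), BECN1 and either ATG14 or UVRAG, and 1 of these 5 genes was called. PIK3R4 (ENSG00000196455, chr3:130678935-130746829, minus strand) stood at 69.5, 68.0 and 78.3 CPM with DMSO, 74.3, 77.6 and 62.0 CPM at 0.3 μM and 85.8, 89.2 and 87.9 CPM at 1 μM. The 1 μM samples lay above all others, and the log2 fold change was 0.28 (SE 0.07, adjusted p = 0.0109). BECN1 stood at 63.9, 71.6 and 65.8 CPM with DMSO, 64.3, 67.2 and 73.2 CPM at 0.3 μM and 64.6, 63.0 and 62.0 CPM at 1 μM. Its log2 fold change at 1 μM was -0.09 with a 95% interval of -0.23 to 0.05 (adjusted p = 0.358). The catalytic PIK3C3 had a log2 fold change of 0.20 and non-overlapping groups but an adjusted p of 0.116, and ATG14, which directs the complex to autophagosomes, had a log2 fold change of -0.14.

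Genes that supply lipid and membrane to the growing autophagosome were uncalled, 6 of 6, with log2 fold changes from -0.06 to 0.15 at 1 μM. These are the lipid transfer proteins ATG2A (0.15) and ATG2B (-0.06), the scramblase ATG9A, and the lipid-binding WIPI1, WIPI2 (0.06) and WDR45 (0.08). ATG2A passed the test without DMSO replicate 1, with an adjusted p of 0.0419. WDR45 shares 2602 bases on the same strand with PRAF2, so reads may be split between the 2 genes.

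The conjugation genes moved in both directions. Of 11, ATG5 rose and ATG4B and ATG16L2 fell at 1 μM. ATG5 (ENSG00000057663, chr6:106045423-106325791, minus strand), the acceptor of ATG12 in the first conjugate, stood at 33.0, 34.9 and 34.5 CPM with DMSO, 33.6, 33.9 and 36.6 CPM at 0.3 μM and 41.0, 40.3 and 40.1 CPM at 1 μM. The 1 μM samples lay within 1 CPM of each other and above the rest. The log2 fold change was 0.24 (SE 0.07, adjusted p = 0.0324), and the call was lost in 5 of 6 fits that left out 1 sample, those without DMSO replicate 1 or 3 or any 1 μM sample, with adjusted p of 0.0802 to 0.088.

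ATG4B (ENSG00000168397, chr2:241637213-241673857, plus strand) is the main protease that trims ATG8 proteins before conjugation. It stood at 68.5, 59.0 and 62.1 CPM with DMSO, 64.7, 58.2 and 56.1 CPM at 0.3 μM and 51.7, 47.3 and 45.6 CPM at 1 μM. The 1 μM samples lay below all others, with a log2 fold change of -0.40 (SE 0.08) and an adjusted p of 0.00309. Of the other ATG4 proteases, ATG4A had a log2 fold change of 0.30, with an adjusted p of 0.0674 that became 0.0438 without DMSO replicate 2. ATG4C and ATG4D were not called.

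ATG16L2 (ENSG00000168010, chr11:72814308-72843674, plus strand) is a relative of ATG16L1 that can join the ATG12 and ATG5 conjugate but is not thought to replace ATG16L1 in starvation-induced autophagy. It stood at 38.2, 36.9 and 34.1 CPM with DMSO, 34.5, 29.7 and 28.1 CPM at 0.3 μM and 21.7, 14.2 and 17.5 CPM at 1 μM, from 246 to 662 counts a sample. The group means were lower at each higher dose, and the 1 μM samples were below all 6 others. The log2 fold change at 1 μM was -1.04 (SE 0.12, adjusted p = 8.53e-05). FCHSD2, which overlaps 6930 bases of ATG16L2 on the opposite strand, had a log2 fold change of 0.04 (adjusted p = 0.795).

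ATG16L1, the subunit that places the conjugation machinery on the membrane, stood at 33.2, 33.4 and 35.3 CPM with DMSO, 38.0, 35.1 and 31.2 CPM at 0.3 μM and 38.5, 34.9 and 36.5 CPM at 1 μM. Its groups overlapped, and the log2 fold change at 1 μM was 0.10 with a 95% interval of -0.06 to 0.26 (adjusted p = 0.371). Within each sample the FPKM ratio of ATG16L2 to ATG16L1 was 0.808, 0.777 and 0.677 with DMSO, 0.638, 0.595 and 0.630 at 0.3 μM and 0.397, 0.286 and 0.336 at 1 μM. The 3 groups did not overlap. The ratio was lower on the log2 scale at both doses, with differences of -0.28 at 0.3 μM and -1.16 at 1 μM, each with the smallest exact p the design allows, 0.1 (adjusted 0.25).

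**Figure D3:**
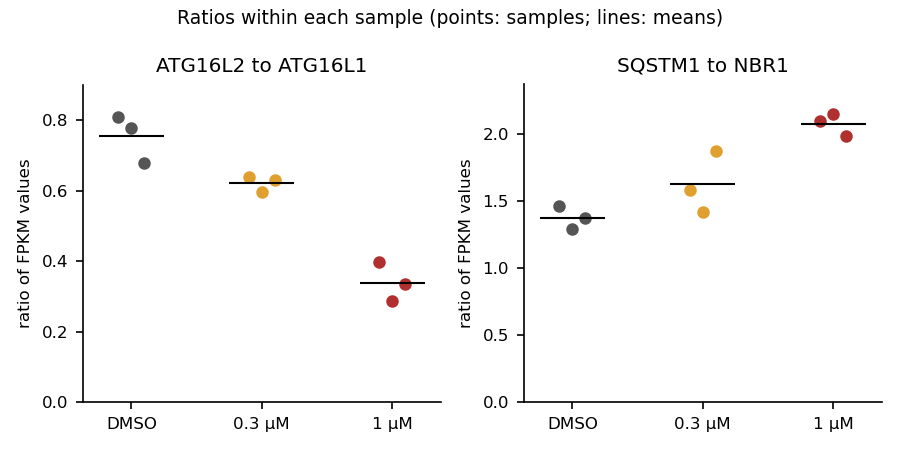
Ratio of FPKM values within each sample (y axis, from 0) for ATG16L2 to ATG16L1 and for SQSTM1 to NBR1, with points for samples and lines for the means of 3. The first ratio was 0.677 to 0.808 with DMSO and 0.286 to 0.397 at 1 μM, and the second was 1.30 to 1.46 with DMSO and 1.99 to 2.15 at 1 μM.

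The other conjugation genes were not called. ATG3, the enzyme that passes ATG8 to lipid, was measured at a log2 fold change of 0.15 and passed the test without DMSO replicate 2 (adjusted p = 0.00955). ATG7, which activates both ATG8 and ATG12, had 0.06, and ATG12 itself had -0.08. TFEB stood at 13.5, 10.3 and 15.4 CPM with DMSO, 17.6, 12.3 and 16.4 CPM at 0.3 μM and 12.9, 13.5 and 13.7 CPM at 1 μM. Its groups overlapped, and the log2 fold change at 1 μM was 0.03 with a 95% interval of -0.26 to 0.32 (adjusted p = 0.908), turning to -0.11 without DMSO replicate 2. TFEB is regulated mainly by its place in the cell, which transcript levels do not show.

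The 29 autophagy genes that were not called at 1 μM had log2 fold changes from -0.14 to 0.32, of which 19 were above 0 and 10 below. For 27 of them the 95% interval lay within 1.5-fold in either direction, and for GABARAP and ULK2 it did not. The samples of the 1 μM and DMSO groups did not overlap for 12 of the 37 genes (32.4%), beside 36.6% of all genes tested. These were the 8 called genes and GABARAPL2, ATG13, PIK3C3 and ATG4A.

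At 0.3 μM none of the 37 genes was called by edgeR and none by DESeq2, and edgeR called 0% of the 15762 genes tested. At an unadjusted p under 0.05 there were 2, SQSTM1 and ATG16L2, which is 5.41% beside 3.77% of all genes tested. Both were among the genes the study displayed from these same samples, so this share and the signs below are not independent of that choice. The log2 fold change was 0.24 for SQSTM1 and -0.24 for ATG16L2, each with an adjusted p of 0.995 by edgeR. The signs are those of the 1 μM values, but both doses were compared with the same DMSO samples. The median of the 37 log2 fold changes was 0.02, beside 0.00 over all genes tested, and 23 of them (62.2%) were above 0, beside 50.3% of all genes tested. For 3 genes (8.11%) the groups did not overlap, GABARAPL2, ATG13 and ATG14, beside 8.37% of all genes tested.

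The remaining called genes were close to DMSO at 0.3 μM, with log2 fold changes of 0.05 for OPTN, 0.01 for TAX1BP1, -0.04 for MAP1LC3B, -0.01 for PIK3R4, 0.02 for ATG5 and -0.08 for ATG4B. TAX1BP1 turned to -0.01 when libraries were scaled by their totals alone. Of the genes given by role, ULK1 had 0.13, ATG16L1 0.03, BECN1 0.02 and TFEB 0.24, with an adjusted p of 0.995 for each by edgeR.

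**Figure D4:**
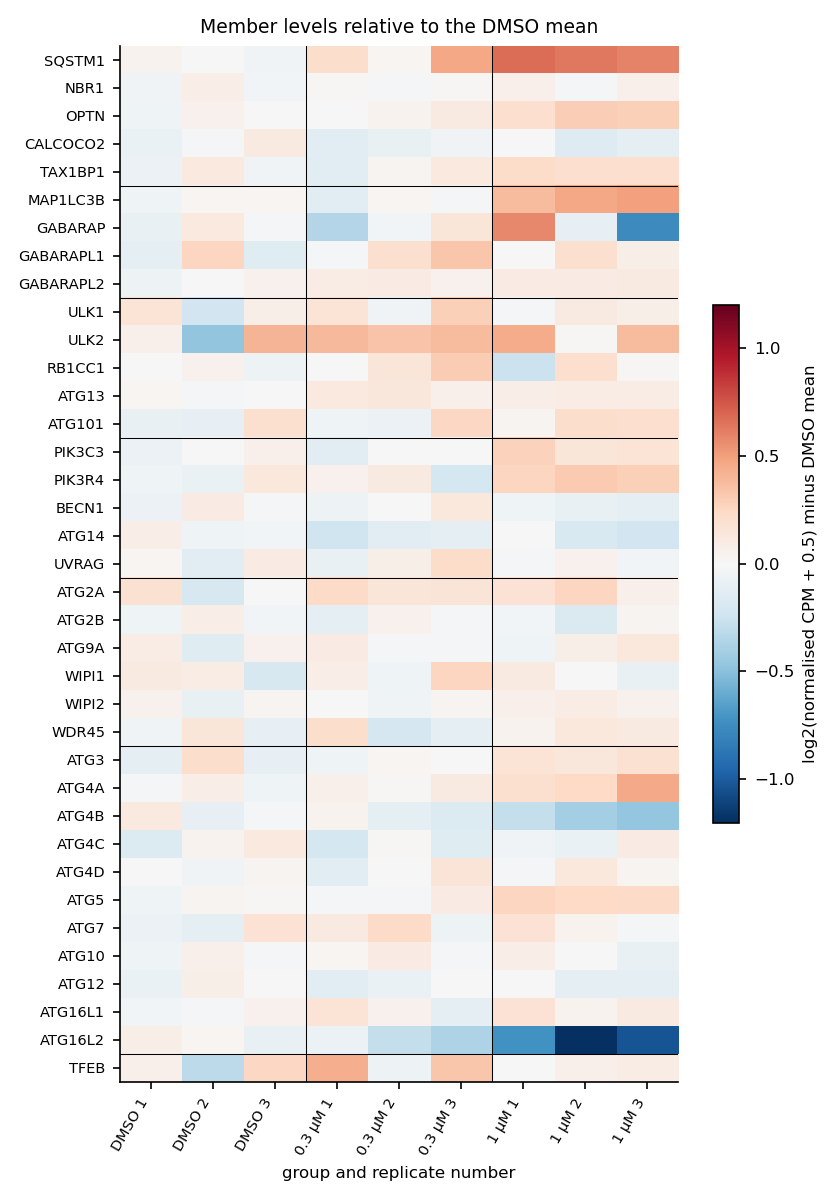
Level of each of the 37 autophagy genes in each of the 9 samples, as log2(normalised CPM + 0.5) minus the DMSO mean, with genes in rows by role and colour from blue (lower) to red (higher). SQSTM1 and MAP1LC3B are red and ATG16L2 and ATG4B blue in all 3 samples at 1 μM, and the mixed colours of GABARAP go with its 8 to 36 counts.

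Between the doses, 6 of the 37 genes were called at 1 μM against 0.3 μM, which is 16.2% beside 12.6% of the 15583 genes tested. SQSTM1 (log2 fold change 0.39, adjusted p = 0.00466), OPTN (0.21, 0.0272), MAP1LC3B (0.49, 0.000221) and PIK3R4 (0.30, 0.0183) were higher at 1 μM, and ATG4B (-0.30, 0.0186) and ATG16L2 (-0.78, 0.000867) were lower, all by edgeR. The 4 higher genes are 10.8% beside 5.85% of all genes tested, and the 2 lower genes 5.41% beside 6.75%. Only ATG16L2 passed 1.5-fold in this fit, 2.7% beside 3.2% of all genes tested. At an unadjusted p under 0.05 there were 11 genes (29.7%) beside 27.6%, groups that did not overlap numbered 12 (32.4%) beside 31.5%, and values above 0 numbered 22 (59.5%) beside 50.5%. The 6 called genes were all also called against DMSO, a comparison that shares the 1 μM samples. TAX1BP1 (0.20, adjusted p = 0.0626) and ATG5 (0.23, adjusted p = 0.0645) were not called, and the adjusted p became 0.0171 and 0.0419 by edgeR without 0.3 μM replicate 3. The count fell to 3 without 1 μM replicate 2 and to 3 without 1 μM replicate 3, as OPTN, PIK3R4 and ATG4B lost the call in both fits. OPTN also lost it without 0.3 μM replicate 1 or 2 (adjusted p of 0.0708 and 0.0788 by edgeR), and ATG4B without 0.3 μM replicate 1 (adjusted p of 0.074).

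Of the 8 genes called at 1 μM, the group means of 6 followed the order of dose, SQSTM1, OPTN, TAX1BP1 and ATG5 upward and ATG4B and ATG16L2 downward, while MAP1LC3B and PIK3R4 had their lowest mean at 0.3 μM. Over all 37 genes the means followed the order of dose in 15. The share over all genes tested was not counted. Genes called for a difference between 1 μM and DMSO are more likely to have their 0.3 μM mean in between. These counts are therefore not read as a dose response. The median deviation of the 37 genes from the DMSO mean was -0.05 to 0.01 in the DMSO samples, 0.00 to 0.06 at 0.3 μM and 0.06 to 0.09 at 1 μM on the log2 scale, so the 1 μM samples were the highest by a small margin.

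Levels were compared between genes by FPKM, in which the count is divided by gene length and library size. With DMSO the median of the 37 genes was 8.83 FPKM, beside 5.498 FPKM for 12870 protein-coding genes with a mean count of at least 10. Cargo receptors held the top 3 places, SQSTM1 at 34.8 ± 0.987 FPKM (SD, n = 3), OPTN at 29.7 ± 1.01 and NBR1 at 25.3 ± 1.23, and their samples did not overlap. GABARAPL2 (17.8 ± 0.718), MAP1LC3B (17.4 ± 0.503) and RB1CC1 (17.2 ± 0.608) came next and each overlapped the one beside it. ATG16L1 stood at 5.56 ± 0.198 FPKM and ATG16L2 at 4.18 ± 0.241. The lowest were TFEB at 2.29 ± 0.460, WDR45 at 1.91 ± 0.178, PIK3C3 at 1.61 ± 0.0791, ATG10 at 1.45 ± 0.0602, GABARAP at 0.503 ± 0.0515 and ULK2 at 0.150 ± 0.0594. These levels rest on the deposited gene lengths, of which that of PIK3C3, 15198 bases, is the longest of the 37. The level of GABARAP is uncertain, because AC120057.2, which had no count in any sample, covers 2344 bases of it on the same strand. Of 36 neighbouring pairs in the order, 24 overlapped, so the middle of the order is not resolved.

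**Figure D5:**
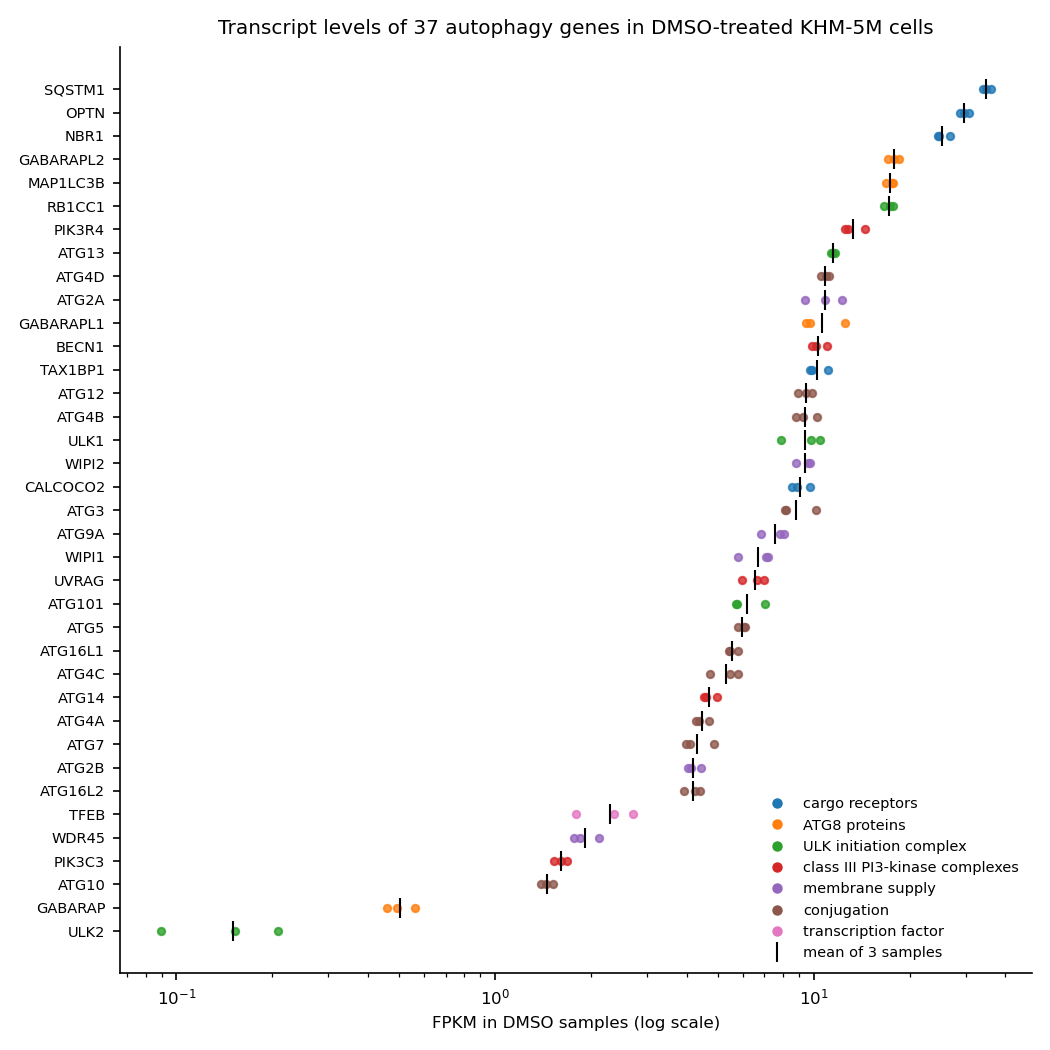
FPKM in the 3 DMSO samples (x axis, log scale) for the 37 autophagy genes in the order of their means, coloured by role, with the mean as a bar. SQSTM1 leads at 34.8, the middle of the order overlaps, and GABARAP and ULK2 stand apart at 0.503 and 0.150. The level of GABARAP is uncertain because another gene overlaps it on the same strand.

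Some of the 37 genes share bases with other genes, and the sources used here do not say whether strand was used in counting. The study's methods name a stranded kit, whereas the labels name a TruSeq RNA kit without saying that it keeps strand. A neighbour with a mean count of at least 10 overlapped 2 genes on the same strand (ULK1 and WDR45) and 17 on the opposite strand. SQSTM1 shares 2946 bases with MRNIP (log2 fold change at 1 μM -0.25, adjusted p = 0.12 by edgeR) and 555 bases with MGAT4B (0.31, adjusted p = 0.0189), both on the opposite strand. MAP1LC3B shares 8148 bases with FBXO31 on the opposite strand (0.10, adjusted p = 0.441). The part of these neighbours in the results was not tested.

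Beyond the 37, 5 further lists of genes around autophagy were counted at 1 μM against DMSO, with 93 genes tested. Of these, 19 were called (20.4%), beside 17.6% of all genes tested. In the direction of a rise there were 17 (18.3%, beside 7.67% of all genes tested) and in that of a fall 2 (2.15%, beside 9.95%), and the same background applies to the counts of each list below. At 0.3 μM none of the genes in these lists was called by edgeR.

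Lysosome genes were tested in full, 26 of 26, with 6 higher and none lower at 1 μM and a median log2 fold change of 0.07. ATP6V0D1 (0.45, adjusted p = 0.00113) and ATP6V1A (0.28, adjusted p = 0.00892) encode parts of the proton pump that acidifies the lysosome, NEU1 (0.39, adjusted p = 0.00245) a sialidase and CTSD (0.29, adjusted p = 0.0124) the protease cathepsin D. The call of CTSD was lost without DMSO replicate 3 or 1 μM replicate 2 (adjusted p of 0.0529 and 0.0666 by edgeR), and the other 3 were kept in every fit run.

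Among 24 tested genes of the TFEB relatives and nutrient sensing, 4 were higher and none lower, with a median of 0.04. RRAGC, a Rag GTPase that brings the kinase mTORC1 to the lysosome, had the largest log2 fold change of the 4 called at 0.65 (SE 0.10, adjusted p = 0.000601 by edgeR), and kept the call in every fit run. RRAGB, another Rag GTPase, had a log2 fold change of -0.66 (SE 0.22) and just missed the threshold (adjusted p = 0.0503 by edgeR). AKT1S1 (0.39, adjusted p = 0.0132) and RPTOR (0.29, adjusted p = 0.0343) encode parts of mTORC1, and FNIP2 (0.31, adjusted p = 0.0244) a partner of folliculin. AKT1S1 lost the call without DMSO replicate 3 or 1 μM replicate 2, FNIP2 without DMSO replicate 3 or 1 μM replicate 1 or 3, and RPTOR in each fit that left out a sample other than DMSO replicate 1, with adjusted p of 0.0579 to 0.107 over these fits.

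Of 15 receptors for organelles, 4 were higher and 1 lower, with a median of 0.12. TOLLIP (0.27, adjusted p = 0.0277), NCOA4, the receptor for ferritin (0.24, adjusted p = 0.00927), SEC62, a receptor in the endoplasmic reticulum (0.23, adjusted p = 0.0304), and BCL2L13, a receptor on mitochondria (0.19, adjusted p = 0.0407), were higher, and CALCOCO1 (-0.26, adjusted p = 0.0135) was lower. NCOA4 lost the call without 1 μM replicate 3 (adjusted p = 0.0581 by edgeR). TOLLIP, SEC62 and CALCOCO1 lost it without DMSO replicate 3 or 1 μM replicate 1 and without at least 1 other sample, with adjusted p of up to 0.122.

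Of 20 further autophagy genes tested, 2 were higher, 1 was lower and the median was 0.06. NRBF2, a subunit of the lipid kinase complex, had a log2 fold change of 0.33 (adjusted p = 0.0172 by edgeR), PLEKHM1, an adaptor for fusion with the lysosome, of 0.29 (adjusted p = 0.0224) and TMEM41B, a scramblase of the endoplasmic reticulum, of -0.38 (adjusted p = 0.00874). TMEM41B lost the call without 1 μM replicate 2 (adjusted p = 0.0522), and NRBF2 and PLEKHM1 lost it without DMSO replicate 3 or 1 μM replicate 3 and without at least 1 other sample, with adjusted p of up to 0.0911.

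SQSTM1 protein binds KEAP1, the inhibitor of the antioxidant factor NFE2L2, and 1 of 8 genes in that list was called, with a median of 0.14. HMOX1, heme oxygenase, had a log2 fold change of 0.36 (SE 0.10, adjusted p = 0.0254 by edgeR) and lost the call without DMSO replicate 2 or 1 μM replicate 1 or 3 (adjusted p of up to 0.108). GCLM (0.25, adjusted p = 0.0598 by edgeR) and TXNRD1 (0.16, adjusted p = 0.0584) were near the threshold. NFE2L2 had 0.12, NQO1 0.08 and KEAP1 -0.03, and none of these 5 was called.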

How the data were processed

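RNA from 9 samples of KHM-5M cells was sequenced after poly(A) selection. The authors aligned reads to GRCh38 and deposited whole-number counts per gene, not normalized, and FPKM values, which they scaled to gene length and library size. The submitters' processing notes list HISAT2 2.0.5, featureCounts 1.5.0-p3 and DESeq2 1.20.0, while the study's methods name HTseq for counting. Deposited columns of the authors' own group comparisons were not used.

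From the counts, edgeR 4.0.16 (R 4.3.3, with limma 3.58.1) was run on the 2 groups compared, after filterByExpr (minimum count 10) and TMM scaling, with quasi-likelihood tests adjusted over all genes tested. Standard errors were taken from the log2 fold change and its F statistic. DESeq2 1.42.0, other scalings, filters and thresholds, 1 fit of all samples, a replicate block and fits without each sample were alternatives. So was a fit with the counts of near-identical gene copies summed. Tables and figures used Python 3.11.15, pandas 2.3.3, numpy 2.4.6, scipy 1.17.1 and matplotlib 3.10.9. Deposited totals of 16903251 to 18238884 counts set the precision.

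The members and the other lists were chosen with earlier results of these data known. Values per sample are given for each called gene and for SQSTM1, ATG16L2, ATG16L1, MAP1LC3B, ULK1, BECN1, ATG5 and TFEB, and from each other list at most 4 called genes with the largest absolute log2 fold change, to which BCL2L13, RRAGB, GCLM, TXNRD1, NFE2L2, NQO1, KEAP1 and the overlapping genes were added after values were seen. Checked on counts simulated for 1 μM against DMSO over 15596 genes, edgeR recovered 65% of 80 genes changed by a log2 of 0.6, 78.75% of 80 changed by 1 and 90% of 40 changed by 2, with 8 false calls. Far fewer genes changed in this simulation than in the data, where 17.6% were called, so the recovery there may differ. The called autophagy genes other than SQSTM1 and ATG16L2 changed by less than 0.6, a size that was not simulated.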

Additional observations from a re-analysis of the deposited data

How the results depend on the processing

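At 1 μM against DMSO the count of called genes was 8 with DESeq2 (14.3% of all genes tested were called in that fit), with RLE size factors (17.8%) and with no filter beyond 1 count (9.76%), 7 with library totals alone (17.3%) and with all 9 samples in 1 fit (16.3%), 2 past the 1.5-fold cutoff (5.49%) and 10 at an unadjusted p under 0.05 (31.9%). Leaving out 1 sample gave 6 to 10 calls at 1 μM against DMSO (10.5% to 18.6% of all genes), 0 at 0.3 μM and 3 to 8 between the doses (5.92% to 11.8%). At 0.3 μM the count was 2 at an unadjusted p (3.77%). Between the doses it was 11 at an unadjusted p (27.6%) and 1 past 1.5-fold (3.2%). SQSTM1, OPTN, MAP1LC3B, PIK3R4, ATG4B and ATG16L2 kept the call at 1 μM against DMSO in every refit, ATG5 in 6 of 12 and TAX1BP1 in 4 of 12.

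The median log2 fold change at 1 μM was 0.0835 with no filter beyond 1 count, and without 1 sample it was 0.0555 to 0.0867 at 1 μM, -0.0039 to 0.0633 at 0.3 μM and -0.0076 to 0.0534 between the doses. The cause was not tested.

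Log2 fold changes near 0 changed sign in some fits, and none of these was called. At 0.3 μM TAX1BP1 was -0.0056 with library totals alone. Without 1 sample the 0.3 μM ranges were -0.0327 to 0.107 for ATG16L1, -0.0152 to 0.0464 for ATG5, -0.0288 to 0.074 for BECN1, -0.0747 to 0.0073 for MAP1LC3B, -0.0772 to 0.0796 for PIK3R4 and -0.0446 to 0.0747 for TAX1BP1, and at 1 μM they were -0.004 to 0.2151 for GABARAPL1, -0.1136 to 0.166 for TFEB and -0.0664 to 0.1265 for ULK1.

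Whether the replicate numbers pair the samples is not settled, as all correlations of deviations were small, with same-numbered ones from -0.0217 to 0.0817. At 0.3 μM against DMSO the same-numbered values, 0.0198 to 0.0817, lay above the others, -0.0692 to 0.0056. In the other comparisons they did not separate. With the number as a replicate block, 6 genes were called at 1 μM against DMSO (TAX1BP1 and ATG5 not, 13.6% of all genes called), 5 between the doses (OPTN not, 11.3%) and 0 at 0.3 μM. GABARAP and ULK2 had few counts, and their intervals pass 1.5-fold. The cause of their low counts was not tested.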
